A study of Mus musculus with 23 samples.

Results

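Glycolysis and the response to low oxygen were described through 33 genes in cells sorted from the mouse mammary gland and from mouse mammary tumours. The genes were chosen by name, and all 33 were found in each of the 3 deposited tables, which list 24391 genes for normal cells, 24511 for PY230 tumour cells and 24322 for C3-1-TAg tumour cells. Of the 33, 16 encode glycolytic enzymes (Hk1, Hk2, Gpi1, Pfkl, Pfkp, Pfkm, Aldoa, Aldoc, Tpi1, Gapdh, Pgk1, Pgam1, Eno1, Eno2, Ldha and Ldhb). A further 3 encode glucose and lactate transporters (Slc2a1, Slc16a1 and Slc16a3). The other 14 act in oxygen sensing or are known to be induced by low oxygen (Car9, Car12, Vegfa, Adm, Bnip3, Egln1, Egln3, Ndrg1, P4ha1, P4ha2, Pdk1, Ankrd37, Ddit4 and Hif1a).

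The series holds 23 RNA-seq libraries in 9 groups, each library made from about 2000 cells sorted by flow cytometry. The normal cells came from C57BL6J mice: fetal mammary stem cells (fMaSC) at embryonic day 18, and adult basal, luminal progenitor and mature luminal cells, with 2 libraries each. PY230 tumours were grown by transplanting this cell line into syngeneic C57BL6J mice, with 2 libraries for each of 3 sorted populations: luminal cells high for SOX10, luminal cells low for SOX10, and basal cells, which were high for SOX10. C3-1-TAg tumours arose spontaneously in FVB mice and gave basal SOX10 high cells (5 libraries) and basal SOX10 low cells (4 libraries). SOX10 is a transcription factor of neural crest and glial cells that also marks some mammary progenitors. No gene deletion or drug treatment is named for any group, and the sources used here do not give the age of the adult mice or the sort markers. All PY230 groups descend from 1 line, which was derived from a mammary tumour driven by the polyoma middle T antigen. In C3-1-TAg mice the SV40 T antigen is driven by the promoter of a rat prostatic steroid-binding protein gene. The labels call the libraries biological replicates without tying them to animals, so p-values measure the spread between these libraries.

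Glycolysis splits glucose into pyruvate in the cytosol. Hexokinases trap glucose as its phosphate, phosphofructokinases set the committed step, aldolases and triosephosphate isomerase make the triose phosphates, and enolases come near the end. Lactate dehydrogenases then interconvert pyruvate and lactate, the A subunit being known for pyruvate reduction and the B subunit for the reverse reaction. Several steps have isoenzymes from separate genes, which are kept apart here. When oxygen is scarce, the prolyl hydroxylases encoded by Egln1 and Egln3 stop marking the HIF-1 alpha protein (Hif1a) for destruction, and HIF then raises transcription of many glycolytic genes, Vegfa, the carbonic anhydrase Car9 and others. Hif1a is regulated mainly at the level of its protein, which RNA-seq does not measure.

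The values are RPKM (reads scaled to transcript length and to the library's mapped reads). Each table was made separately, so levels are compared only within a table. Fold changes and p-values come from limma on log2(RPKM + 1), fitted over all groups of a table with a two-sided test, and a gene is called at a Benjamini-Hochberg adjusted p under 0.05 over all genes tested. Fold changes on this scale understate changes of genes with low values. The number of reads per library is unknown. Relative depth was estimated from the most common ratio of the same genes' low values between a reference library and each other library. This assumes equal numbers of reads behind such values. The estimates ranged from 0.745 to 1.364 in PY230 libraries (luminal SOX10 high replicate 1 = 1) and from 0.629 to 1.29 in C3-1-TAg libraries (SOX10 high replicate 1 = 1). Sox10 itself was 101 and 66.9 RPKM in PY230 luminal SOX10 high, 72.0 and 78.3 in basal SOX10 high and 13.6 and 11.0 in luminal SOX10 low libraries. In C3-1-TAg cells it was 91.9 to 164 RPKM in SOX10 high and 2.10 to 40.9 in SOX10 low libraries, so the groups did not overlap in either model. The summed level of 8 basal markers (such as Krt5 and Krt14) was 2747 and 1314 RPKM in adult basal and 11.2 to 24.7 in luminal progenitor and mature luminal libraries. It was 3117 and 2729 RPKM in PY230 basal libraries, 33.9 to 112 in PY230 luminal libraries and 146 to 1133 in C3-1-TAg libraries, while 6 luminal markers summed to 367 and 565 in PY230 basal and 4224 to 10559 in PY230 luminal libraries. The luminal sum was 3280 and 1624 RPKM in adult basal and 15593 to 24001 in luminal progenitor and mature luminal libraries. In C3-1-TAg libraries, which are labelled basal, it was 1639 to 2742 RPKM. In every adult basal and C3-1-TAg library the luminal sum was above the basal sum.

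**Figure D1:**
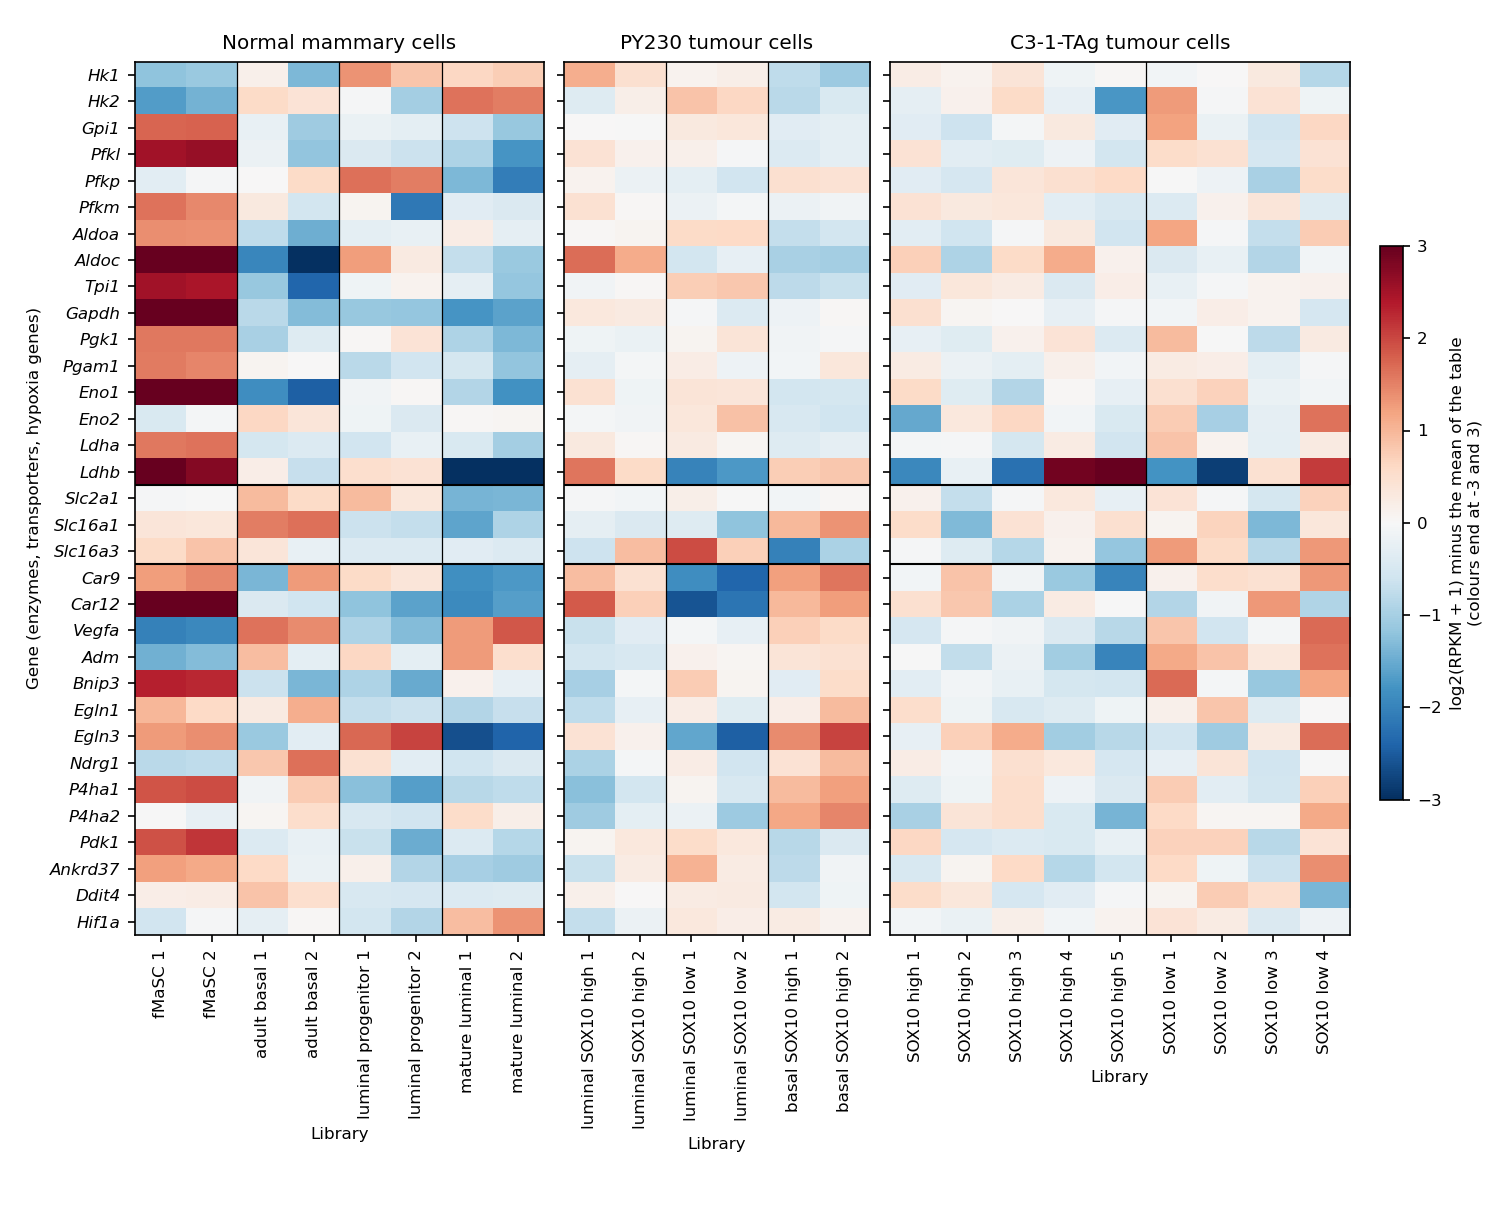
Each cell of the heat maps gives log2(RPKM + 1) of 1 gene (vertical axis) in 1 library (horizontal axis) minus the mean of that gene over its table, with colours ending at -3 and 3. Most enzymes are red in both fMaSC libraries, Hk2 and Vegfa are blue there, and in the C3-1-TAg panel only Adm separates SOX10 high from low libraries.

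Normal cells held different sets of glycolytic enzymes at different levels. In fMaSC most enzymes after the hexokinase step stood above adult cells, while the hexokinase Hk2 and the vascular factors Vegfa and Adm stood below them. Many of the enzymes called higher have near-identical copies elsewhere in the genome, which makes their values uncertain. Of the later enzymes that share little sequence with other genes, Pfkl, Aldoc and Tpi1 were higher against all 3 adult populations. Pfkp, Pfkm and Eno2 were not. Over the whole set, 16 of 32 tested members were higher and 7 lower in fMaSC against adult basal cells, where 60.3% of all genes tested were called, 36.9% higher and 23.4% lower. Against luminal progenitors 20 were higher and 5 lower, beside 50.6% of all genes called (35.5% higher, 15% lower). Against mature luminal cells 24 were higher and 5 lower, beside 56.4% (41.7% higher, 14.7% lower). Of 16 enzymes, 11 were higher and 2 lower against adult basal cells, 12 higher and 3 lower against luminal progenitors, and 13 higher and 2 lower against mature luminal cells. These 3 comparisons share the 2 fMaSC libraries. In bulk samples such as these, fewer cells of a type and less RNA per cell cannot be told apart.

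The hexokinases ran opposite to most of the pathway. Hk1, the broadly expressed hexokinase, was 8.39 and 8.90 RPKM in fMaSC, 23.1 and 7.44 in adult basal, 54.4 and 37.3 in luminal progenitor and 32 and 34.7 in mature luminal libraries. Hk2, the inducible hexokinase of insulin-responsive and many tumour tissues, was 10.8 and 13.1 RPKM in fMaSC, 55.6 and 49.0 in adult basal, 35.9 and 17.6 in luminal progenitor and 115 and 109 in mature luminal libraries. Every adult library thus lay above both fMaSC libraries for Hk2, and mature luminal cells were highest. Hk2 was lower in fMaSC against adult basal (log2 fold change -2.04, SE 0.31, adjusted p = 0.00124), luminal progenitor (-1.02, adjusted p = 0.0292) and mature luminal cells (-3.13, adjusted p = 0.000179). Hk1 was lower against luminal progenitors (-2.26, adjusted p = 0.00515) and mature luminal cells (-1.83, adjusted p = 0.0108) but was not called against adult basal cells (-0.56, adjusted p = 0.312), whose 2 libraries differed widely.

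The 3 phosphofructokinase genes did not follow each other. Pfkl, the liver-type subunit, was 53.4 and 57.4 RPKM in fMaSC, 7.37 and 3.15 in adult basal, 6.03 and 5.08 in luminal progenitor and 4.0 and 1.79 in mature luminal libraries. Pfkp, the platelet-type subunit, was 21.5 and 26.4 RPKM in fMaSC, 27.1 and 40.5 in adult basal, 86.7 and 80.7 in luminal progenitor and 10.0 and 5.62 in mature luminal libraries. Pfkm, the muscle-type subunit, was 33.2 and 28.8 RPKM in fMaSC, 12.5 and 6.49 in adult basal, 10.6 and 1.47 in luminal progenitor and 7.75 and 7.17 in mature luminal libraries. Pfkl was therefore an fMaSC-high subunit and Pfkp a luminal progenitor-high one, with no overlap between those groups and the others. Pfkl was higher in fMaSC with log2 fold changes of 3.26, SE 0.40, adjusted p = 0.000472 against adult basal, 3.11, adjusted p = 0.000686 against luminal progenitor and 3.91, adjusted p = 0.000194 against mature luminal cells. Pfkp was lower in fMaSC than in luminal progenitors (-1.77, adjusted p = 0.00247), higher than in mature luminal cells (1.54, adjusted p = 0.00384) and not called against adult basal cells (-0.46, adjusted p = 0.225). Pfkm did not pass against adult basal cells (1.67, adjusted p = 0.0605).

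Both aldolases and triosephosphate isomerase were higher in fMaSC than in every adult population. Aldoc, an aldolase best known from brain, was 488 and 462 RPKM in fMaSC, 13.3 and 2.65 in adult basal, 132 and 66.0 in luminal progenitor and 32.9 and 24.7 in mature luminal libraries. Aldoa, the main aldolase of muscle and most proliferating cells, was 1214 and 1184 RPKM in fMaSC, 273 and 166 in adult basal, 377 and 396 in luminal progenitor and 539 and 381 in mature luminal libraries. The fMaSC libraries were above all adult libraries for both genes, by far more for Aldoc in adult basal cells than in luminal progenitors. Aldoc was higher in fMaSC by a log2 fold change of 6.04, SE 0.61, adjusted p = 0.00021 against adult basal, 2.33, adjusted p = 0.0154 against luminal progenitor and 4.01, adjusted p = 0.00117 against mature luminal cells. For Aldoa the log2 fold changes were 2.49, adjusted p = 0.000328, 1.63, adjusted p = 0.00252 and 1.40, adjusted p = 0.0042 in the same order. Tpi1, triosephosphate isomerase, was 511 and 489.8 RPKM in fMaSC, 39.5 and 16.1 in adult basal, 81.0 and 95 in luminal progenitor and 73.6 and 39.0 in mature luminal libraries, with a log2 fold change of 4.25, adjusted p = 0.000222 for fMaSC against adult basal cells. Gpi1, which makes fructose 6-phosphate, was 764 and 769 RPKM in fMaSC and 103 to 198 across adult libraries.

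Enolase 1 and both lactate dehydrogenase subunits were higher in fMaSC as well. Eno1 was 1346 and 1394 RPKM in fMaSC, 31.8 and 20.8 in adult basal, 108 and 121 in luminal progenitor and 63.9 and 32.8 in mature luminal libraries, and its log2 fold changes in fMaSC were 5.68, SE 0.33, adjusted p = 3.26e-05, 3.57, adjusted p = 0.000168 and 4.87, adjusted p = 3.39e-05 against these 3 populations. Eno2, the neuronal enolase, was 0.489 to 2.16 RPKM over all normal libraries. Ldha was the most abundant member, at 3889 and 4014 RPKM in fMaSC, 912 and 976 in adult basal, 884 and 1125 in luminal progenitor and 950.3 and 646 in mature luminal libraries. Ldhb was 80.6 and 66.8 RPKM in fMaSC, 10.5 and 5.19 in adult basal, 13.2 and 12.7 in luminal progenitor and 0.185 and 0.166 in mature luminal libraries. Mature luminal cells thus carried almost no Ldhb RNA, and the log2 fold change of fMaSC against them was 5.98, SE 0.31, adjusted p = 1.37e-05, compared with 3.14, adjusted p = 0.000198 against adult basal and 2.42, adjusted p = 0.00069 against luminal progenitor cells. Of the remaining enzymes, Pgk1 was 666 and 666 RPKM in fMaSC and 86.5 to 291 in adult libraries, and Pgam1 was 243 and 225 in fMaSC and 35.1 to 86.3. Gapdh, known as one of the most abundant messages of most cells, was 65.7 and 65.2 RPKM in fMaSC and only 0.309 to 1.55 in adult libraries (log2 fold changes 4.95, adjusted p = 2.08e-05, 5.04, adjusted p = 1.68e-05 and 5.58, adjusted p = 8.41e-06). It was listed low in tumour cells too, at 1.0 to 2.29 RPKM in PY230 and 1.40 to 3.75 in C3-1-TAg libraries. How far these values reflect Gapdh RNA was not tested.

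Several of these enzyme genes have near-identical copies elsewhere in the genome, and their values are uncertain for that reason. Over stretches of 50 bases, the shorter read length used, Gapdh shares 83.8% with transcripts of 205 other genes, Eno1 72.8%, Pgk1 67.4% and Pgam1 41.2%. Ldhb shares 27.7%, Gpi1 20.3%, the mitophagy gene Bnip3 20.2%, Aldoa 14.7% and Ldha 14.5%, Tpi1 shares 5.51%, and no other member shares over 0.117%. How reads that match several places were counted is not given in the sources used here. Genes with shares of 50% or more held 7.88% and 7.58% of all RPKM in the fMaSC libraries and 5.12% to 6.4% in adult ones. Among tested genes, the median log2 fold change of the 210 genes with such shares was 0.71 for fMaSC against adult basal cells, beside 0.27 for the 8364 genes that share none. It was 0.63 beside 0.42 against luminal progenitors and 0.59 beside 0.55 against mature luminal cells. Their part in the enzyme results was not tested. Of the enzymes that share under 10%, Pfkl, Aldoc and Tpi1 were higher in fMaSC than in adult basal cells, Hk2 and Eno2 were lower, and Hk1, Pfkp and Pfkm were not called.

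**Figure D2:**
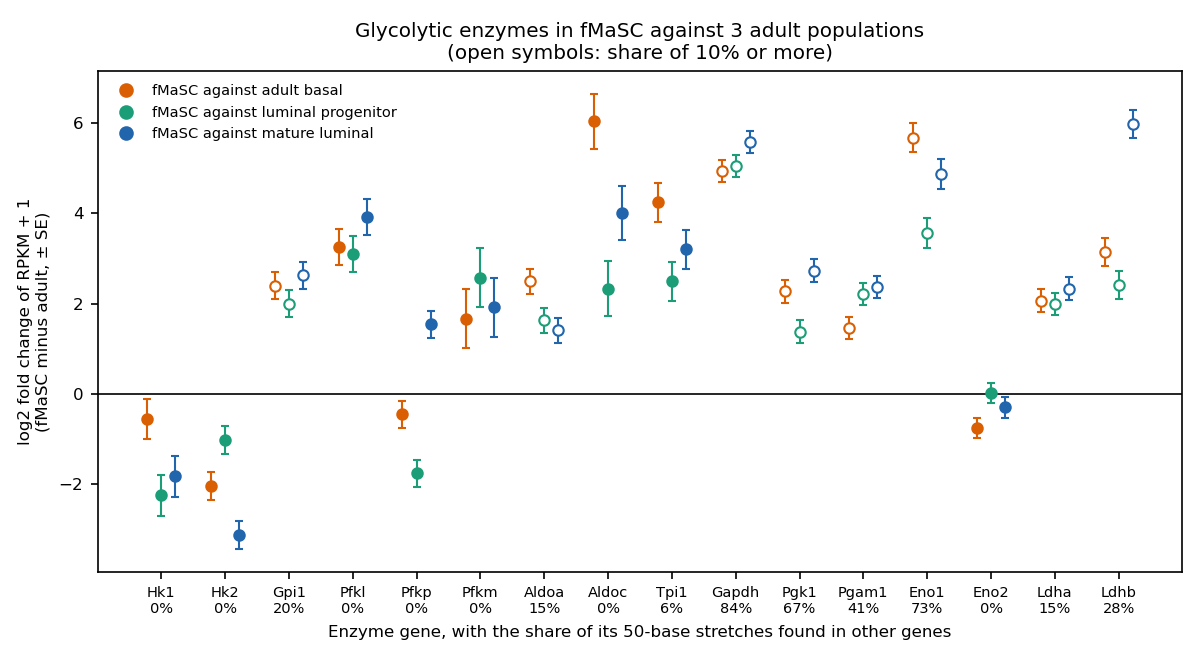
Points give the log2 fold change of RPKM + 1 (vertical axis, fMaSC minus adult) for each enzyme gene (horizontal axis, with its share of 50-base stretches found in other genes), bars give ± SE, colours give the adult population, and open symbols mark shares of 10% or more. The hexokinases lie below 0 and Pfkl, Aldoc and Tpi1, with filled symbols, lie above it in all 3 colours.

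Slc2a1 and Slc16a1 levels in fMaSC lay between those of adult basal and mature luminal cells. Slc2a1, the glucose transporter GLUT1, was 62.2 and 62.8 RPKM in fMaSC, 123 and 94.4 in adult basal, 125 and 80.4 in luminal progenitor and 23.6 and 24.1 in mature luminal libraries. Slc16a1, the monocarboxylate transporter MCT1, was 66.7 and 65.5 RPKM in fMaSC, 151 and 166 in adult basal, 32.8 and 31.0 in luminal progenitor and 16.5 and 26.8 in mature luminal libraries. Adult basal cells were highest for Slc16a1, above every other normal library. Both genes were lower in fMaSC than in adult basal cells (Slc2a1 -0.78, adjusted p = 0.0272, Slc16a1 -1.24, adjusted p = 0.00313) and higher than in mature luminal cells (Slc2a1 1.35, adjusted p = 0.00263, Slc16a1 1.60, adjusted p = 0.00101). Slc16a3, the lactate exporter MCT4, was 0.976 and 1.41 RPKM in fMaSC, 0.719 and 0.149 in adult basal and 0 to 0.0470 in luminal libraries. It reached 1 RPKM in fewer than 2 normal libraries and was the only member not tested there.

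Hypoxia genes were called in both directions in fMaSC. Of 14, 5 were higher and 3 lower against adult basal cells, near the shares of all genes (36.9% higher, 23.4% lower). They were 7 higher and 2 lower against luminal progenitors (35.5% and 15% of all genes), and 9 higher and 3 lower against mature luminal cells (41.7% and 14.7%). Car12, a membrane carbonic anhydrase, was 50.2 and 55.0 RPKM in fMaSC, 2.0 and 1.69 in adult basal, 0.758 and 0.332 in luminal progenitor and 0.0765 and 0.285 in mature luminal libraries, a difference of 4.24, SE 0.24, adjusted p = 3.11e-05 against adult basal cells, 5.13, adjusted p = 1.62e-05 against luminal progenitors and 5.51, adjusted p = 8.41e-06 against mature luminal cells on the log2 scale. Car9, its hypoxia-induced relative, was 7.50 and 8.66 RPKM in fMaSC, 0.379 and 7.65 in adult basal, 4.33 and 3.61 in luminal progenitor and 0 and 0.0846 in mature luminal libraries, and passed only against mature luminal cells (3.12, adjusted p = 0.00837). The 2 adult basal libraries lay far apart for Car9, replicate 1 near the mature luminal and replicate 2 near the fMaSC values.

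P4ha1, Pdk1 and Bnip3 were higher in fMaSC than in all 3 adult populations. P4ha1, a prolyl 4-hydroxylase subunit for collagen, was 45.8 and 48.1 RPKM in fMaSC, 10.7 and 20.3 in adult basal, 4.32 and 3.04 in luminal progenitor and 6.16 and 6.45 in mature luminal libraries. Its paralogue P4ha2 was 5.03 and 4.07, then 5.28 and 7.68, then 3.31 and 3.04 and then 7.89 and 5.86 RPKM in the same order and was not called in any fMaSC comparison. P4ha1 in fMaSC thus lay above all adult libraries (log2 fold changes 1.60, adjusted p = 0.00348, 3.37, adjusted p = 0.000163 and 2.71, adjusted p = 0.000322). Pdk1, the kinase that shuts pyruvate dehydrogenase, was 43.1 and 50.4 RPKM in fMaSC against 3.20 to 9.01 in adult libraries, with log2 fold changes of 2.34, adjusted p = 0.00067, 3.10, adjusted p = 0.000236 and 2.66, adjusted p = 0.000365. Bnip3, a mitophagy receptor, was 29.4 and 28.0 RPKM in fMaSC against 1.13 to 5.62 in adult libraries (log2 fold changes 3.29, adjusted p = 0.000205, 3.51, adjusted p = 0.000175 and 2.35, adjusted p = 0.00081). Ankrd37, a small HIF target, was 3.91 and 3.65 RPKM in fMaSC against 0 to 2.19 in adult libraries and passed against luminal progenitors (1.55, adjusted p = 0.0124) and mature luminal cells (2.21, adjusted p = 0.00216).

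The secreted vascular factors ran the other way. Vegfa, the main angiogenic growth factor, was 10.2 and 10.9 RPKM in fMaSC, 141 and 122 in adult basal, 22.9 and 17.5 in luminal progenitor and 110.4 and 165 in mature luminal libraries. Every adult library was above both fMaSC libraries, and basal and mature luminal cells stood well above luminal progenitors. The log2 fold changes of Vegfa in fMaSC were -3.52, SE 0.24, adjusted p = 5.87e-05 against adult basal, -0.86, adjusted p = 0.0214 against luminal progenitor and -3.56, adjusted p = 3.58e-05 against mature luminal cells. Adm, the vasodilator peptide adrenomedullin, was 0.967 and 1.16 RPKM in fMaSC and 3.31 to 11.9 in adult libraries, and was lower in fMaSC in all 3 comparisons (-1.69, adjusted p = 0.0201, -1.52, adjusted p = 0.0351 and -2.25, adjusted p = 0.00628). Ndrg1, a stress-induced gene of differentiated epithelia, was 112 and 115 RPKM in fMaSC, 348 and 625 in adult basal, 271 and 157 in luminal progenitor and 129.7 and 147 in mature luminal libraries, and was lower in fMaSC against adult basal cells (-2.03, adjusted p = 0.00185).

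The oxygen sensors differed between cell types. Egln3 was 36.5 and 39.6 RPKM in fMaSC, 6.09 and 11.3 in adult basal, 50.1 and 62.0 in luminal progenitor and 1.48 and 1.91 in mature luminal libraries. Egln1 was 12.7 and 9.36, then 7.31 and 13.6, then 3.19 and 3.42 and then 2.73 and 3.26 RPKM in the same order. Luminal progenitors were therefore highest for Egln3 and, with mature luminal cells, lowest for Egln1. Egln3 was higher in fMaSC than in adult basal (2.06, adjusted p = 0.00087) and mature luminal cells (3.86, adjusted p = 5.35e-05), and Egln1 was higher than in luminal progenitors (1.47, adjusted p = 0.00676) and mature luminal cells (1.58, adjusted p = 0.00415). Hif1a was 63.8 and 94.1 RPKM in fMaSC, 80.1 and 98.1 in adult basal, 65.1 and 52.3 in luminal progenitor and 184 and 247 in mature luminal libraries, so mature luminal cells were highest and fMaSC were lower than them (-1.45, adjusted p = 0.0026). Ddit4, an inhibitor of mTORC1 signalling, was 1.08 to 4.41 RPKM over all normal libraries.

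The median log2 fold change of the members was 1.53, 1.51 and 2.27 in these comparisons, beside 0.27, 0.39 and 0.53 over all genes. Quantile normalization brings the all-gene medians to -0.02, -0.04 and 0.00 and the share of higher calls among all calls from 61.1%, 70.3% and 73.9% to 49.4%, 49.6% and 50.8%, and it leaves 16, 18 and 22 members higher and 9, 8 and 7 lower. Among the 23 tested members that share under 10% of their 50-base stretches, 7 were higher and 7 lower against adult basal cells (median -0.19), 11 and 5 against luminal progenitors (median 0.71), and 15 and 5 against mature luminal cells (median 1.58). Against adult basal cells, 9 of the 16 higher calls were thus of genes with larger shares, and none of the 7 lower calls was.

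Other measures moved with the fetal group. The summed level of 8 cell-cycle genes was 621 and 601 RPKM in fMaSC and 1.84 to 6.18 in adult libraries. Red cell markers (6 genes) summed to 260.1 and 333 RPKM in fMaSC and 0 to 9.40 in adult libraries, with 1 of 6 at 0 in each fMaSC library. Fat cell markers (6 genes) summed to 237 and 211 RPKM in fMaSC, 66.5 and 233 in adult basal and 6.42 to 49.4 in luminal libraries. Of these 6 genes, 5 and 6 were at 1 RPKM or more in the fMaSC libraries and 1 in each adult library. Fibroblast markers (7 genes) summed to 83.9 and 101 RPKM in fMaSC and 7.46 to 58.9 in adult libraries. The nuclear RNA Malat1 made up 0.563% and 0.46% of all RPKM in fMaSC and 3.5% to 11.5% in adult libraries. Their part in the results was not tested. Against adult basal cells, leaving out 1 library ended calls for Eno2, Slc2a1 and Adm without adult basal replicate 1, fMaSC replicate 1 or fMaSC replicate 2 (adjusted p 0.0522 to 0.203). Against luminal progenitors calls ended for Hk2, Pfkm, Aldoc, Slc16a1, Vegfa, Adm, Egln1, Ankrd37 and Ddit4 without fMaSC replicate 1 (adjusted p 0.062 to 0.151) and for Hk2, Pfkm, Aldoc, Slc16a1, Vegfa, Adm, Ankrd37 and Ddit4 without fMaSC replicate 2 (adjusted p 0.0555 to 0.159). Calls also ended for Hk2, Vegfa, Adm and Ddit4 without luminal progenitor replicate 1 (adjusted p 0.0822 to 0.193) and for Aldoc, Ankrd37 and Ddit4 without luminal progenitor replicate 2 (adjusted p 0.0687 to 0.102). Against mature luminal cells calls ended for Hk1, Pfkm and Ddit4 without fMaSC replicate 1 or mature luminal replicate 2 (adjusted p 0.0536 to 0.182). They ended too for Pfkm and Ddit4 without fMaSC replicate 2 or mature luminal replicate 1 (adjusted p 0.107 to 0.197).

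Among the adult populations, Slc16a1, Ndrg1 and P4ha1 were highest in basal cells, and Pfkp and Egln3 in luminal progenitors. Basal cells against luminal progenitors gave 11 higher and 8 lower members of 32, beside 35.5% of all genes called (21% higher, 14.5% lower). The enzymes gave 3 higher and 7 lower of 16 and the hypoxia genes 7 higher and 1 lower of 14. Quantile normalization moves the share of higher calls among all genes called from 59.3% to 48.9%, and the members to 8 higher and 9 lower. Vegfa (2.65, SE 0.24, adjusted p = 0.000431), Slc16a1 (2.27, adjusted p = 0.000662) and P4ha1 (1.77, adjusted p = 0.00504) were the widest increases in basal cells. Aldoc (-3.71, SE 0.61, adjusted p = 0.00389), Egln3 (-2.60, adjusted p = 0.0009), Eno1 (-2.11, adjusted p = 0.00331), Tpi1 (-1.75, adjusted p = 0.0191) and Hk1 (-1.69, adjusted p = 0.0251) were the widest decreases, on the log2 scale. Other basal increases that passed were Egln1 1.35, Ddit4 1.17, Ndrg1 1.17, Hk2 1.02, Car12 0.89, P4ha2 0.82, Eno2 0.78 and Pgam1 0.74. Pfkp -1.31, Pgk1 -0.90 and Aldoa -0.86 also fell. The log2 fold change of Car9 was -0.52, adjusted p = 0.608, and without adult basal replicate 1 it was 0.80, adjusted p = 0.0245. Leaving out 1 library ended calls in this comparison for Hk2, Pgk1, Pgam1 and Eno2 without adult basal replicate 1 (adjusted p 0.0606 to 0.0821) and for Hk2, Aldoa, Pgam1, Ndrg1 and P4ha2 without adult basal replicate 2 (adjusted p 0.0547 to 0.151). Calls ended as well for Hk1, Pfkp, Aldoa, Tpi1, Pgk1, Pgam1, Eno2, Egln1 and P4ha2 without luminal progenitor replicate 1 (adjusted p 0.059 to 0.195) and for Hk1, Hk2, Pfkp, Aldoa, Tpi1, Pgk1, Pgam1, Eno2, Car12, Egln1, Ndrg1 and P4ha2 without luminal progenitor replicate 2 (adjusted p 0.0655 to 0.175).

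Basal cells against mature luminal cells gave 12 higher and 5 lower members, beside 48.6% of all genes called (28.8% higher, 19.8% lower). Under quantile normalization the share of higher calls moves from 59.2% to 46.7% and the members to 10 higher and 8 lower. Slc16a1 (2.85, SE 0.23, adjusted p = 0.000173), Ldhb (2.85, adjusted p = 0.000506) and Slc2a1 (2.13, adjusted p = 0.000616) were the widest differences, all of them higher in basal cells. Pfkp 2.0, Egln3 1.80, Ndrg1 1.75, Egln1 1.46, Car12 1.27, Ankrd37 1.24, P4ha1 1.11, Ddit4 1.08 and Pgam1 0.91 were also higher. Lower in basal cells were Aldoc -2.03, Hif1a (-1.26, adjusted p = 0.00669), Hk2 -1.09, Aldoa -1.09 and Bnip3 -0.94. The lower count moved to 8 without adult basal replicate 1, 2 without adult basal replicate 2, 1 without mature luminal replicate 1 and 3 without mature luminal replicate 2. Single calls ended for Ankrd37 without adult basal replicate 1 (adjusted p 0.1) and for Hk2, Aldoc and Bnip3 without adult basal replicate 2 (adjusted p 0.0595 to 0.149). Single calls also ended for Hk2, Aldoa, Aldoc, Bnip3, Egln1, P4ha1 and Ankrd37 without mature luminal replicate 1 (adjusted p 0.0537 to 0.221) and for Hk2, Aldoc, Pgam1, Bnip3, P4ha1 and Ankrd37 without mature luminal replicate 2 (adjusted p 0.0752 to 0.122).

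Mature luminal cells against luminal progenitors gave 5 higher and 6 lower members, beside 22.1% of all genes called (8.63% higher, 13.4% lower). Here quantile normalization moves that share from 39.1% to 49.5% and leaves both member counts as they are. Higher in mature luminal cells were Vegfa (2.69, SE 0.24, adjusted p = 0.000884), Hk2 (2.11, adjusted p = 0.00443), Hif1a (1.85, adjusted p = 0.00373), Bnip3 (1.16, adjusted p = 0.0437) and P4ha2 (0.90, adjusted p = 0.0485). Lower were Egln3 (-4.40, SE 0.29, adjusted p = 0.000325), Ldhb (-3.57, adjusted p = 0.000759), Pfkp (-3.31, adjusted p = 0.000889), Slc2a1 (-2.02, adjusted p = 0.00215), Pgk1 (-1.36, adjusted p = 0.0113) and Eno1 (-1.3, adjusted p = 0.0311). The higher count was 3 without luminal progenitor replicate 2 or either mature luminal library. Between luminal populations calls ended for Eno1, Bnip3 and P4ha2 without luminal progenitor replicate 1 (adjusted p 0.0724 to 0.148) and for Pgk1, Eno1, Bnip3 and P4ha2 without luminal progenitor replicate 2 or mature luminal replicate 2 (adjusted p 0.0689 to 0.198). Between them calls also ended for Bnip3 and P4ha2 without mature luminal replicate 1 (adjusted p 0.207 to 0.235).

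**Figure D3:**
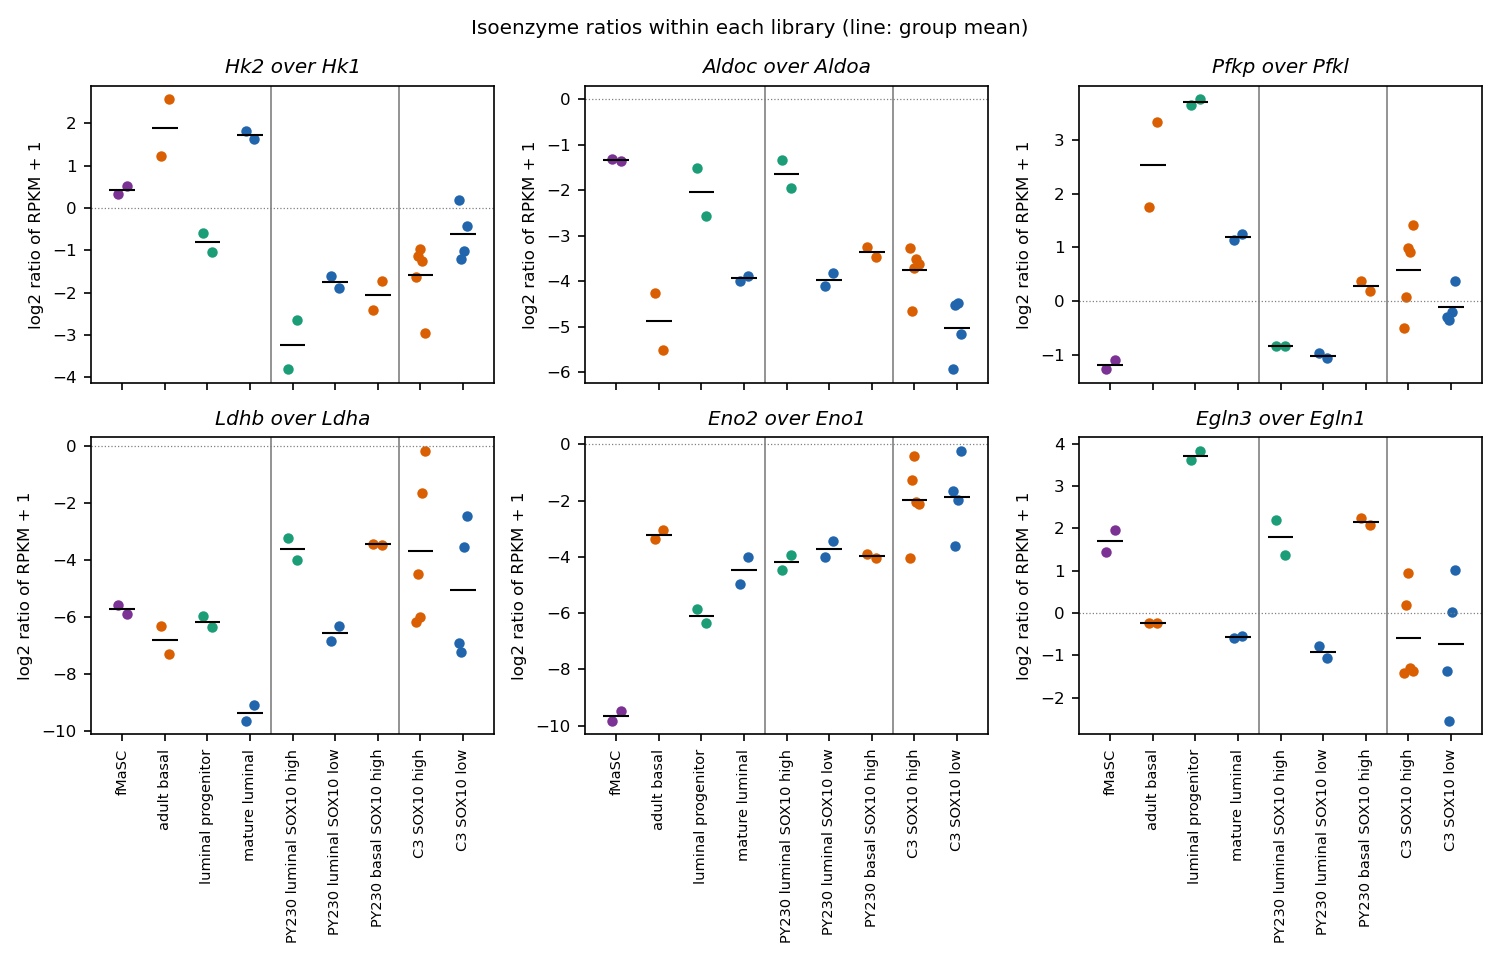
Points give the log2 ratio of RPKM + 1 of 2 isoenzyme genes in each library (vertical axis) by group (horizontal axis), lines give group means, and vertical lines separate the 3 tables. Pfkp over Pfkl is above 3 only in luminal progenitors and 1 adult basal library, and Ldhb over Ldha is lowest in mature luminal cells.

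Ratios of 2 isoenzymes within a library depend little on its overall scale. Pfkp over Pfkl, as log2 of RPKM + 1, was -1.27 and -1.09 in fMaSC, 1.75 and 3.32 in adult basal, 3.64 and 3.75 in luminal progenitor and 1.14 and 1.25 in mature luminal libraries. Hk2 over Hk1 was 0.33 and 0.51, then 1.23 and 2.57, then -0.59 and -1.04 and then 1.82 and 1.63 in the same order, so luminal progenitors alone among normal groups held more Hk1 than Hk2 RNA. In PY230 cells Hk2 over Hk1 was -3.82 and -2.65 in luminal SOX10 high, -1.60 and -1.89 in luminal SOX10 low and -2.41 and -1.72 in basal SOX10 high libraries. Aldoc over Aldoa was -1.33 and -1.95, then -4.12 and -3.83 and then -3.24 and -3.46 in these PY230 groups. Ldhb over Ldha was -3.23 and -4.01, then -6.83 and -6.32 and then -3.42 and -3.46, so SOX10 low cells had the lowest share of Ldhb. These ratios are descriptions without a test.

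In PY230 tumours the carbonic anhydrases, Egln3 and Ldhb separated SOX10 high from SOX10 low cells. Car9 was 73.2 and 52.7 RPKM in luminal SOX10 high, 9.67 and 6.43 in luminal SOX10 low and 90.5 and 118 in basal SOX10 high libraries. Car12 was 93.4 and 42.9, then 3.39 and 4.76 and then 51.3 and 62.3 RPKM in the same order, and Egln3 was 57.7 and 46.5, then 13.9 and 7.06 and then 116 and 176. The SOX10 low libraries were below all SOX10 high libraries for these 3 genes. Ldhb was 47.7 and 22.5 RPKM in luminal SOX10 high, 2.95 and 3.81 in luminal SOX10 low and 25.5 and 27.0 in basal SOX10 high libraries. Aldoc was 228 and 153, then 47.7 and 58.8 and then 35.5 and 33.9 RPKM, so it was high in luminal SOX10 high cells alone.

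**Figure D4:**
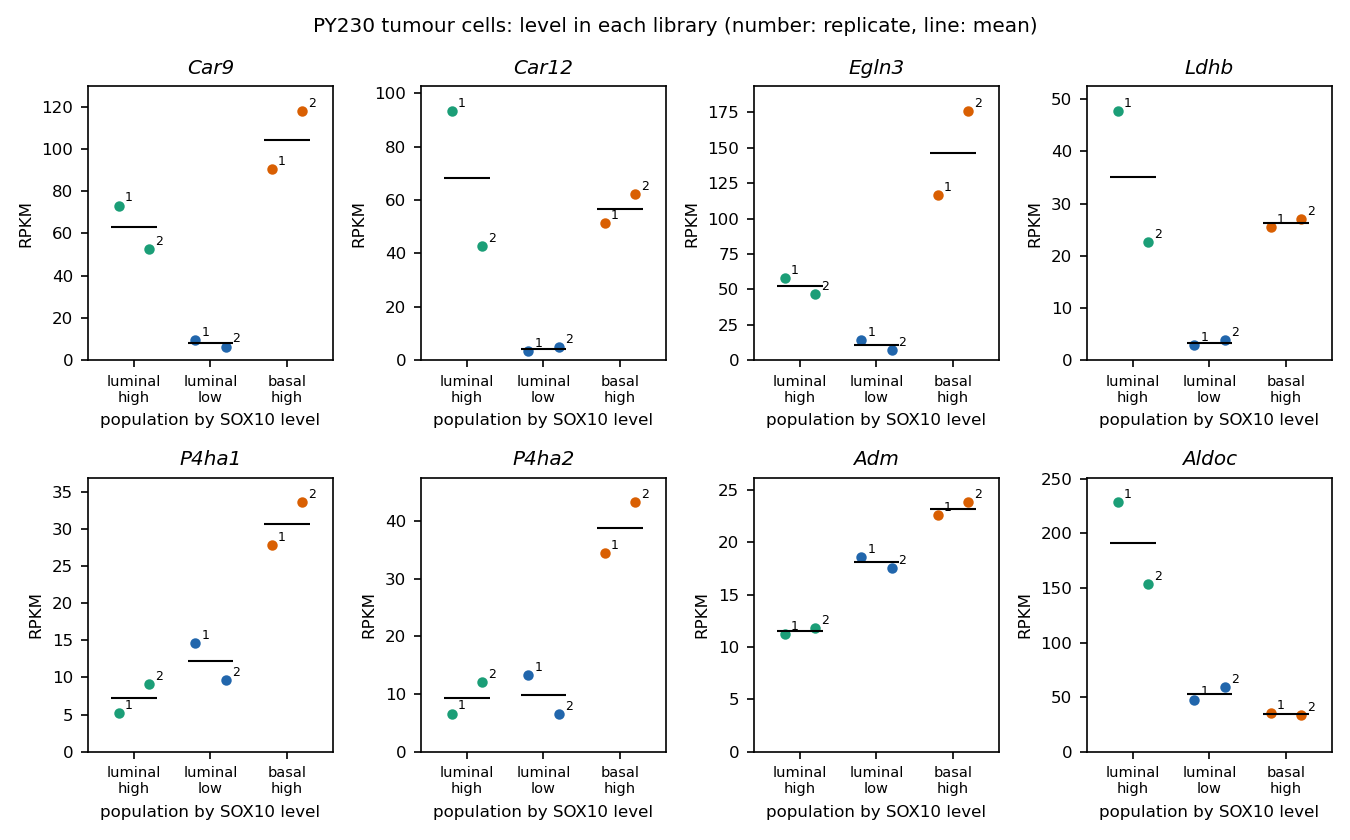
Points give RPKM (vertical axis) of 8 genes in each PY230 library by population (horizontal axis), numbers give the replicate, and lines give means. Car9, Car12, Egln3 and Ldhb are low in both luminal SOX10 low libraries, and P4ha1 and P4ha2 are high in both basal libraries.

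Luminal SOX10 high against SOX10 low cells gave 5 higher and 4 lower members of 33, beside 22.6% of all genes called (12.6% higher, 10% lower). The members' median was -0.22, beside 0.01 over all genes. Higher were Car12 (3.68, SE 0.35, adjusted p = 0.00273), Ldhb (2.96, SE 0.32, adjusted p = 0.00386), Car9 (2.83, SE 0.24, adjusted p = 0.00228), Egln3 (2.27, SE 0.32, adjusted p = 0.00824) and Aldoc (1.80, SE 0.21, adjusted p = 0.00476) on the log2 scale, and all 5 passed in each fit without 1 library. Luminal progenitor markers (6 genes, such as Kit and Elf5) summed to 1843 and 844 RPKM in SOX10 high and 158 and 171 in SOX10 low libraries. Mature luminal markers (6 genes, such as Esr1 and Pgr) summed to 461 and 936 and to 2035 and 2325 RPKM, and the part of these shifts in the results was not tested. Lower were Hk2 (-0.84, adjusted p = 0.0426), Tpi1 (-0.82, adjusted p = 0.014), Hif1a (-0.70, adjusted p = 0.0429) and Adm (-0.61, adjusted p = 0.0188). Hk2 was 9.31 and 14.3 RPKM in SOX10 high and 23.3 and 19.9 in SOX10 low libraries, and Tpi1 was 200.2 and 219 against 361 and 379. Adm was 11.2 and 11.8 against 18.6 and 17.6 RPKM, and Hif1a 24.8 and 36.3 against 51.6 and 47.1. Without luminal SOX10 high replicate 2 there were 8 higher and 7 lower, without replicate 1 of that group 1 lower, and without either SOX10 low library 0 lower. Lower calls ended for Hk2, Adm and Hif1a without luminal SOX10 high replicate 1 (adjusted p 0.061 to 0.153). Lower calls also ended for Hk2, Tpi1, Adm and Hif1a without luminal SOX10 low replicate 1 or luminal SOX10 low replicate 2 (adjusted p 0.0825 to 0.188). Among the enzymes that were not called, Aldoa was 575 and 595 RPKM in SOX10 high and 844 and 850.1 in SOX10 low libraries (-0.53, adjusted p = 0.0633), and Ldha differed by 0.00, adjusted p = 0.999. Slc16a3 was 3.06 and 10.8 RPKM against 23.2 and 9.26 (-1.19, adjusted p = 0.218) and the groups overlapped.

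In basal SOX10 high PY230 cells 8 of 14 hypoxia genes were higher and 6 of 16 enzymes lower than in luminal SOX10 high cells. Over all members the counts were 10 higher and 7 lower of 33, beside 42% of all genes called (13.8% higher, 28.2% lower). The other higher members were the enzyme Pfkp and the transporter Slc16a1, and the other lower member was Pdk1. P4ha1 was 27.8 and 33.6 RPKM in basal, 5.24 and 9.15 in luminal SOX10 high and 14.7 and 9.65 in luminal SOX10 low libraries. P4ha2 was 34.5 and 43.3, then 6.62 and 12.0 and then 13.3 and 6.48 RPKM in the same order, and both collagen hydroxylase genes lay above all luminal libraries in basal cells. The log2 fold changes against luminal SOX10 high cells were 1.99, SE 0.28, adjusted p = 0.00209 for P4ha1 and 1.99, SE 0.36, adjusted p = 0.00567 for P4ha2. Vegfa was 192 and 175 RPKM in basal and 72.2 and 91.2 in luminal SOX10 high libraries (1.17, adjusted p = 0.00204), and Adm 22.6 and 23.8 against 11.2 and 11.8 (0.95, adjusted p = 0.00132). Slc16a1 was 8.98 and 12.1, then 3.28 and 2.78 and then 2.88 and 1.20 RPKM in basal, luminal SOX10 high and luminal SOX10 low libraries (1.51, adjusted p = 0.0069 against SOX10 high). Egln3 (1.45, adjusted p = 0.0126), Ndrg1 (1.18, adjusted p = 0.0431), Egln1 (1.07, adjusted p = 0.0354), Hif1a (0.61, adjusted p = 0.0396) and Pfkp (0.49, adjusted p = 0.0433) were also higher. Lower in basal cells were Aldoc (-2.40, SE 0.21, adjusted p = 0.000318), Hk1 (-1.70, SE 0.22, adjusted p = 0.00147), Pdk1 (-0.84, adjusted p = 0.0109), Eno1 (-0.70, adjusted p = 0.0285), Aldoa (-0.69, adjusted p = 0.0175), Tpi1 (-0.69, adjusted p = 0.00904) and Pfkl (-0.63, adjusted p = 0.0175). Hk1 was 39.8 and 31.6 RPKM in basal and 145 and 95 in luminal SOX10 high libraries.

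The all-gene median in this comparison was -0.21, and median-of-ratios factors bring it to -0.01, the share of higher calls from 32.9% to 51.1% and the members' counts to 11 higher and 4 lower, without calls for Pfkl, Aldoa and Eno1. With quantile normalization the median was -0.06, the share 46.2% and the members' counts 10 higher and 8 lower, so the 2 methods moved the lower count in opposite directions. Fibroblast markers (7 genes) summed to 186 and 315 RPKM in basal, 99.0 and 185 in luminal SOX10 high and 127 and 63.7 in luminal SOX10 low libraries. Fat cell markers (6 genes, 1 of them at 1 RPKM or more in each library) summed to 58.2 and 76.6 RPKM in basal, 7.14 and 10.4 in luminal SOX10 high and 6.89 and 1.3 in luminal SOX10 low libraries. Cell-cycle genes summed to 137 and 152 RPKM in basal and 215 to 283 in luminal libraries, and their part in these results was not tested. The counts were 2 lower without basal replicate 1, 4 higher and 4 lower without basal replicate 2, and 11 lower without luminal SOX10 high replicate 2. Calls in this comparison ended for Pfkl, Pfkp, Aldoa, Tpi1, Eno1, Ndrg1, Pdk1 and Hif1a without basal SOX10 high replicate 1 (adjusted p 0.0648 to 0.171) and for Pfkl, Pfkp, Aldoa, Eno1, Slc16a1, Egln1, Egln3, Ndrg1 and Hif1a without basal SOX10 high replicate 2 (adjusted p 0.0507 to 0.2). Calls here ended too for Egln1, Ndrg1 and Hif1a without luminal SOX10 high replicate 1 (adjusted p 0.0936 to 0.185) and for Pfkp and Egln3 without luminal SOX10 high replicate 2 (adjusted p 0.0548 to 0.122).

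Basal SOX10 high against luminal SOX10 low cells gave 10 higher and 11 lower members, beside 55.2% of all genes called (21.8% higher, 33.4% lower), and this comparison shares libraries with the other 2. Egln3 (3.72, SE 0.32, adjusted p = 0.000174), Car9 (3.55, SE 0.24, adjusted p = 7.42e-05), Car12 (3.52, SE 0.35, adjusted p = 0.00028) and Ldhb (2.65, SE 0.32, adjusted p = 0.000644) were the widest increases. Slc16a1 1.96, P4ha2 1.94, P4ha1 1.29, Pfkp 0.89, Vegfa 0.80 and Adm 0.34 were the others. The decreases were led by Slc16a3 (-2.81, SE 0.63, adjusted p = 0.00877), which was 0.545 and 2.26 RPKM in basal and 23.2 and 9.26 in luminal SOX10 low libraries, and Tpi1 (-1.51, adjusted p = 0.000232). Hk2 -1.37, Aldoa -1.22, Eno2 -1.15, Pdk1 -1.08, Hk1 -1.05, Eno1 -0.92, Gpi1 -0.63, Aldoc -0.60 and Ddit4 -0.59 were lower as well. On the RPKM scale, basal cells were thus lower for 8 of 16 enzymes and higher for 2, Ldhb and Pfkp. The all-gene median was -0.16, and median-of-ratios factors bring it to 0.01. Under these factors the share of higher calls moves from 39.5% to 51.3% and the members to 10 higher and 9 lower. With quantile normalization the share was 46.3% and the members 10 higher and 10 lower. The deposited Eno1 values follow those listed for its near-identical copy Eno1b (49.7 and 50.7, then 101 and 66.8 and then 96.1 and 94.7 RPKM in basal, luminal SOX10 high and luminal SOX10 low libraries, beside 47.1 and 48.0, then 95.4 and 63.4 and then 90.9 and 90.2 for Eno1), so reads of this pair cannot be told apart in this table. Single calls were lost for Aldoc, Slc16a3, Adm and Ddit4 without basal SOX10 high replicate 1 (adjusted p 0.0609 to 0.177) and for Aldoc, Adm and P4ha1 without basal SOX10 high replicate 2 (adjusted p 0.0531 to 0.168). Others were lost for Aldoc, Adm and Ddit4 without luminal SOX10 low replicate 1 (adjusted p 0.0706 to 0.156) and for Gpi1, Aldoc, Vegfa, Adm and Ddit4 without luminal SOX10 low replicate 2 (adjusted p 0.0516 to 0.254).

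HIF is known to bind a short core at its targets. For that reason the upstream sequences of 8 genes, picked from the members called higher in PY230 comparisons, are shown. They are the 250 bases before the annotated start, 5′ to 3′ on the gene's strand, from RefSeq on build GRCm38.p6, and capitals mark each match to the HIF core ACGTG or GCGTG on either strand (CACGT or CACGC when read on the gene's strand, ACGTG and CACGT overlapping where both are present). Car9, Car12, Egln3, Ldhb and Aldoc, which has 2 annotated starts, were higher in luminal SOX10 high than in SOX10 low cells, and P4ha1, P4ha2 and Adm were higher in basal than in luminal SOX10 high cells.
Car9 (chr4:43506776-43507025, + strand): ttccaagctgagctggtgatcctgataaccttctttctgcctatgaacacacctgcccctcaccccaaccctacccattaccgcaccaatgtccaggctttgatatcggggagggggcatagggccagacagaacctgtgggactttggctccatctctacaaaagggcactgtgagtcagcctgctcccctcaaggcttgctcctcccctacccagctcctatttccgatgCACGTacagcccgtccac
Car12 (chr9:66713436-66713685, + strand): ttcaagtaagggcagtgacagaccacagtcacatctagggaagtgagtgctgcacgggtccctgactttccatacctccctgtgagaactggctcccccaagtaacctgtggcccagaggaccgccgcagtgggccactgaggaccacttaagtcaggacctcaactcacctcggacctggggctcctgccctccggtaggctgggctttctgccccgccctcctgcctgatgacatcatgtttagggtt
Egln3 (chr12:54203875-54204124, - strand): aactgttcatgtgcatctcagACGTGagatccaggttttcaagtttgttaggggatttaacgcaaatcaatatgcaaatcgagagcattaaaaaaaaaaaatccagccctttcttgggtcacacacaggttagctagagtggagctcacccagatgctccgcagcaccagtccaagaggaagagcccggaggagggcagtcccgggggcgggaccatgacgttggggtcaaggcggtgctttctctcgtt
Ldhb (chr6:142507958-142508207, - strand): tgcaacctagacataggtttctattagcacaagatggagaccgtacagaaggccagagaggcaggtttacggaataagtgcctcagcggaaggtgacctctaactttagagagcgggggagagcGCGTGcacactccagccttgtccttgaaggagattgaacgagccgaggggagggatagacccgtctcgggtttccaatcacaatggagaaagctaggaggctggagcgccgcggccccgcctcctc
Aldoc, upstream start (chr11:78322823-78323072, + strand): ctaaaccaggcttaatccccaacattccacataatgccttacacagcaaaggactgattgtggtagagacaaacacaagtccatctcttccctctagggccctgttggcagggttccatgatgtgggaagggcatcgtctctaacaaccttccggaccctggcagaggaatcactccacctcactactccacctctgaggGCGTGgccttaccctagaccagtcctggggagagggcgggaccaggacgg
Aldoc, downstream start (chr11:78323948-78324197, + strand): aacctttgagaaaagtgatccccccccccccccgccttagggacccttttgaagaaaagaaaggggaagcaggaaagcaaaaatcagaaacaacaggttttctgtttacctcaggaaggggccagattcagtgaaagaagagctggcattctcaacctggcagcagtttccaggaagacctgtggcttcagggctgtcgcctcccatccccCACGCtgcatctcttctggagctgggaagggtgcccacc
P4ha1 (chr10:59323046-59323295, + strand): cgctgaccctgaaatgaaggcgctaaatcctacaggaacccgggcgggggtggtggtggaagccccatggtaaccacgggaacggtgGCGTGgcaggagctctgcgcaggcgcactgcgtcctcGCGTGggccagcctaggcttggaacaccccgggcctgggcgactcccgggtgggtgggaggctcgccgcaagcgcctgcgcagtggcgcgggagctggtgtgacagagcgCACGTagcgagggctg
P4ha2 (chr11:54100674-54100923, + strand): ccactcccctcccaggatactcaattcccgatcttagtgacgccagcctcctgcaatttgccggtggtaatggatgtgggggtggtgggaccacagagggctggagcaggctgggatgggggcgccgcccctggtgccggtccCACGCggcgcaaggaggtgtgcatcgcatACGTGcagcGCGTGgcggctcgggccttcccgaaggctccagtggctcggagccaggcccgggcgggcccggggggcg
Adm (chr7:110627407-110627656, + strand): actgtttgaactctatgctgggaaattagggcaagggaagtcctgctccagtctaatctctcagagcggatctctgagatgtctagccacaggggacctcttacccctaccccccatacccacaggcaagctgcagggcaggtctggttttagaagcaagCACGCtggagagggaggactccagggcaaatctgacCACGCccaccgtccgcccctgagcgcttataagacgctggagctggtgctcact
Car9 has 1 match, starting 18 bases before the start site, Egln3 has 1 at 229 bases, Ldhb has 1 at 126 bases, Aldoc has 1 before each start, at 50 and 39 bases, and P4ha1 has 3, at 163, 126 and 16 bases. P4ha2 has 3, at 107, 78 and 69 bases, Adm has 2, at 90 and 54 bases, and Car12 has none in this window. Among all 32851 promoter entries of the same length, 38.6% hold the core, as do 35 of the 44 entries of members (79.5%). Counting a gene when any of its entries matches, 28 of the 32 members with an entry do (87.5%), the others being Car12, Eno2, Gpi1 and Tpi1. A share counted by gene was not computed for all genes, so 38.6% is no background for 87.5%. The members were chosen by name as genes of glycolysis or the response to low oxygen. A higher share among their entries is therefore no independent result, and base composition was not matched. Ndrg1 had no entry. Of the members called lower in luminal SOX10 high than in SOX10 low cells, Hk2, Hif1a and Adm hold the core and Tpi1 does not. A SOX-type core, ACAAT or ATTGT, is in 27.7% of all entries and in 5 of the 44 entries of members (11.4%), and among the sequences shown it is in those of Ldhb, at 47 bases, and of the upstream start of Aldoc, at 194 bases. A match of 5 letters is a description of these letters and not a binding site.

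In C3-1-TAg tumours 0 of 33 members passed between SOX10 high and low cells, where 0.0418% of all genes tested (5 of 11948) were called by limma. The median residual SD over the genes tested was 0.39 on the log2 scale in C3-1-TAg libraries, beside 0.167 in PY230 libraries. At an unadjusted p under 0.05 there were 2 members, Adm and Slc16a3. Adm was 20.7, 12.2, 18.3, 9.61 and 4.57 RPKM in the 5 SOX10 high libraries and 47.5, 38.3, 26.3 and 66.3 in the 4 SOX10 low libraries, the only member whose groups did not overlap, beside 0.477% of all genes lower without overlap. Its log2 fold change was -1.77, SE 0.40, adjusted p = 0.647. Slc16a3 was 16.1, 12.3, 8.60, 17.9 and 6.86 RPKM in SOX10 high and 41.6, 25.3, 8.91 and 41.9 in SOX10 low libraries (-1.05, adjusted p = 1), with SOX10 low replicate 3 among the SOX10 high values. The members' median was -0.27, beside -0.04 over all genes.

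Hypoxia gene levels varied between the SOX10 low libraries. Of 14 hypoxia genes, 8 had SOX10 low replicate 1 among their 2 highest of 9 libraries (22.7% of all genes tested), 8 had replicate 4 (18.3%), 5 had replicate 2 (21.7%) and 1 had replicate 3 (26.7%). Replicate 4 was highest for 6 of them (8.73% of all genes), and replicates 1 and 2 for 3 each (14.1% and 10.2%). In what follows, values of the 5 SOX10 high libraries stand before those of the 4 SOX10 low libraries. Vegfa was 82.9, 117, 111, 88.5 and 66.2 RPKM in SOX10 high and 212, 79.8, 113 and 391 in SOX10 low libraries, so only replicates 1 and 4 of the low group lay above all high libraries. Bnip3 was 4.20, 5.18, 4.54, 3.53 and 3.43 against 20.1, 5.21, 1.95 and 13.9 RPKM, P4ha2 14.2, 38.0, 42.2, 20.7 and 10.4 against 44.3, 30.2, 30.1 and 64.9, and Ankrd37 3.80, 6.12, 9.11, 2.70 and 3.57 against 9.17, 5.19, 3.28 and 16.8. Of 16 enzymes, 6 were highest in SOX10 low replicate 1 (14.1% of all genes), among them Gpi1 (35.5, 29.1, 42.8, 55.0 and 35 RPKM in high and 106, 39.2, 29.7 and 69.3 in low libraries). SOX10 low replicate 3 was lowest of the 9 for 5 hypoxia genes and 3 enzymes (3.64% of all genes). The spread was not confined to that group, as SOX10 high replicate 5 was lowest for 4 hypoxia genes and 4 enzymes (8.85% of all genes). Immune markers (9 genes) summed to 1195 RPKM in SOX10 low replicate 1 and 11.5 to 127 in the other libraries. Fibroblast markers summed to 393 RPKM there, 308 and 364 in SOX10 high replicates 4 and 5 and 4.44 to 139 elsewhere, and the part of either in these levels was not tested.

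**Figure D5:**
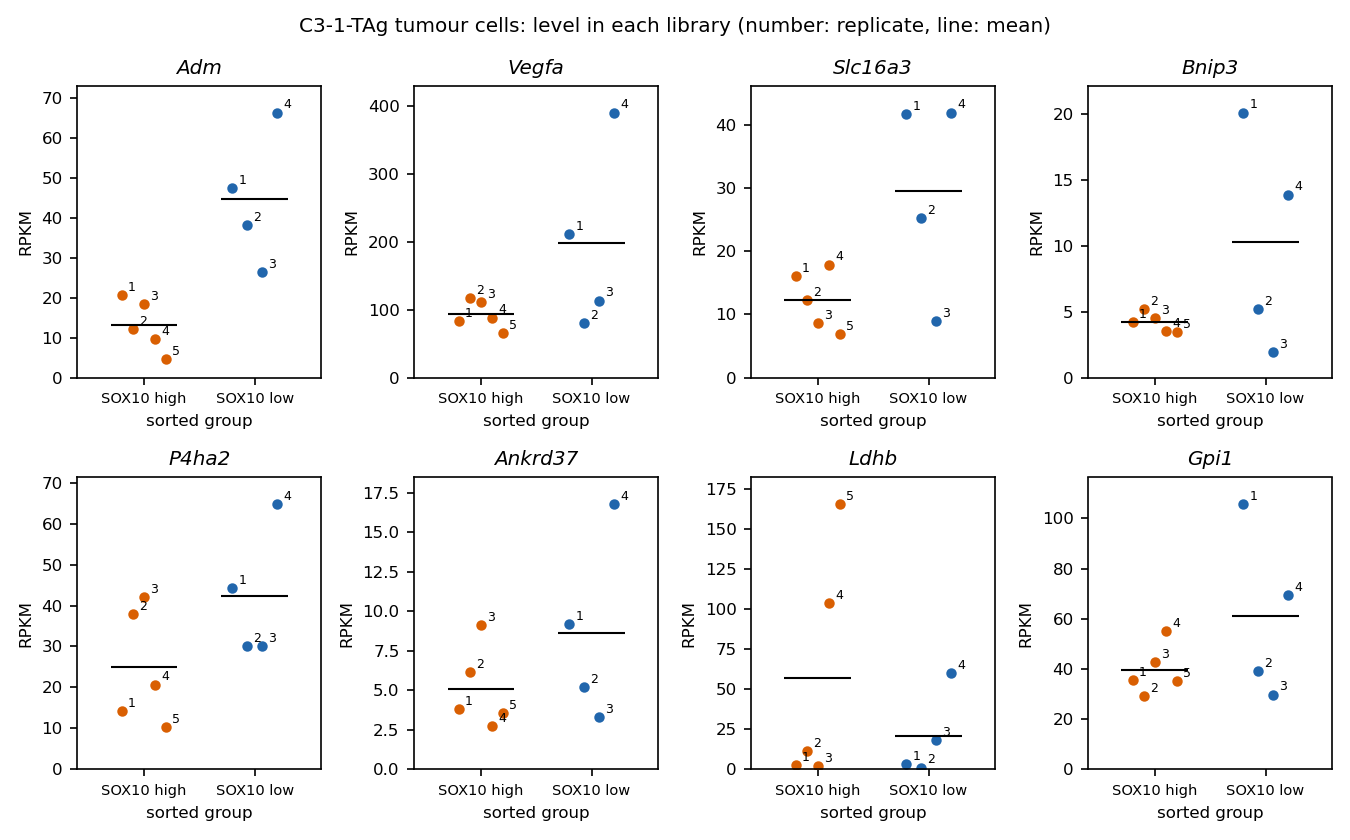
Points give RPKM (vertical axis) of 8 genes in each C3-1-TAg library by group (horizontal axis), numbers give the replicate, and lines give means. SOX10 low replicates 1 and 4 are the highest for Vegfa, Slc16a3 and Bnip3, and Ldhb is high in SOX10 high replicates 4 and 5 and low replicate 4.

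Several isoenzyme genes varied widely between these libraries. Ldhb was 2.71, 11.1, 2.0, 104 and 166 RPKM in SOX10 high and 3.10, 0.980, 18.4 and 59.8 in SOX10 low libraries, the widest range of any member, 169 times from lowest to highest. Aldoc was 22.7, 6.55, 20.3, 30.0 and 14.8 against 9.61, 11.3, 6.84 and 12.6 RPKM, Hk2 9.52, 12.9, 17.9, 9.64 and 2.76 against 29.5, 11.2, 16.0 and 10.6, and Hk1 31.7, 29.5, 36.0, 24.6 and 28.0 against 25.7, 27.3, 33.5 and 14.6. Eno2 was 3.19, 14.2, 17.7, 10.4 and 7.93 RPKM in SOX10 high and 19.6, 5.12, 9.15 and 36.6 in SOX10 low libraries, and Eno1 67.4, 35.3, 24, 46.6 and 37.8 against 63.7, 74.0, 39.2 and 42.8. Each of these genes overlapped between the groups. Car9 was 12.7, 25.2, 12.4, 5.72 and 2.70 against 15, 19.8, 18.9 and 34.5 RPKM, Car12 6.99, 9.09, 1.99, 5.79 and 4.76 against 2.14, 4.39, 13.3 and 2.10, and Egln3 9.62, 19.6, 26.2, 5.06 and 6.03 against 7.38, 5.01, 14.2 and 39.2, so the genes that separated PY230 SOX10 high from low cells overlapped here. Groups of 2 libraries, as in PY230, separate more readily than groups of 5 and 4. Narrower ranges in C3-1-TAg cells were those of Tpi1 (1.72 times), Hif1a (1.86 times) and Pgam1 (1.60 times) between the lowest and highest library. Ldha was 184 to 499 RPKM, Slc2a1 47.4 to 127, Ndrg1 176 to 364 and Ddit4 51.1 to 226 over the 9 libraries. Of the phosphofructokinases, Pfkl was 42.0, 24.5, 24, 27.8 and 20.8 against 45.9, 42.7, 21.5 and 41.9, Pfkp 29.4, 26.0, 48.8, 53.0 and 57.0 against 37.1, 33.4, 18.5 and 54.9, and Pfkm 10.4, 9.22, 9.65, 5.76 and 5.04 against 5.30, 8.24, 9.82 and 5.40 RPKM.

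The SOX10 high against low effect was also compared between PY230 luminal and C3-1-TAg cells, as the difference of the 2 log2 fold changes. For each gene the fit used a shared estimate of the spread over all tumour libraries. The median residual SD was 0.167 in PY230 and 0.39 in C3-1-TAg libraries, so the p-values do not measure the spread of either model alone. No member passed (0 of 33 by limma, 4 at an unadjusted p under 0.05), beside 0.0963% of all genes (11 of 11418), 0.0876% with a higher and 0.00876% with a lower effect in PY230. The difference was 3.91, SE 0.81, adjusted p = 0.0968 for Car9, 3.42, SE 0.81, adjusted p = 0.145 for Car12, 2.41, SE 0.98, adjusted p = 0.501 for Egln3 and 2.03, SE 2.19, adjusted p = 0.896 for Ldhb, each larger in PY230. Without C3-1-TAg SOX10 high replicate 2, Car9 passed with an adjusted p of 0.0313. Strain, tumour model, sorted population (luminal in PY230, basal in C3-1-TAg) and table differ together between these 2 sets and cannot be told apart.

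Further genes of the same pathways were taken from 2 lists. Of 21 other glycolysis genes tested in normal cells, 9 were higher and 4 lower in fMaSC against adult basal cells, 6 and 2 against luminal progenitors, and 8 and 4 against mature luminal cells. The shares of all genes were 36.9% higher and 23.4% lower, 35.5% and 15%, and 41.7% and 14.7% in the same order, so these counts lie near them. Of 23 other hypoxia genes, 5 were higher and 9 lower, 9 higher and 4 lower, and 10 higher and 3 lower in these comparisons. Fbp1, the gluconeogenic fructose bisphosphatase that opposes phosphofructokinase, was listed at 0 in the adult basal and luminal progenitor libraries and 56.2 ± 2.48 RPKM in fMaSC (SD, n = 2). Fam162a, a HIF target, was 644 ± 48.0 against 46.2 ± 8.42 RPKM (log2 fold change 3.78, adjusted p = 3.43e-05), as mean ± SD with n = 2 in each group. Pdk4 was 0.360 ± 0.165 against 51.2 ± 45.4 RPKM (log2 fold change -4.92, adjusted p = 0.000957) and Pdk3 78.6 ± 2.98 against 6.15 ± 2.38 RPKM (log2 fold change 3.52, adjusted p = 8.07e-05), so isoenzymes of pyruvate dehydrogenase kinase differed in opposite directions between fMaSC and adult basal cells. Mif, a cytokine gene, was 489 ± 35.1 against 48.4 ± 7.25 RPKM (log2 fold change 3.32, adjusted p = 0.000114) in fMaSC against luminal progenitors, and Plod2, a lysyl hydroxylase for collagen, was 53.2 ± 2.64 against 0.186 ± 0.205 RPKM (log2 fold change 5.53, adjusted p = 8.41e-06) against mature luminal cells.

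Among adult cells, basal against luminal progenitor cells gave 5 higher and 1 lower of the other glycolysis genes and 7 higher and 1 lower of the other hypoxia genes, beside 21% and 14.5% of all genes. Epas1, which encodes HIF-2 alpha, was 71.2 ± 12.8 against 11.2 ± 2.60 RPKM (log2 fold change 2.57, adjusted p = 0.000495). Against mature luminal cells the counts were 4 and 3, and 10 and 3, beside 28.8% and 19.8% of all genes, with Epas1 at 71.2 ± 12.8 against 2.67 ± 0.460 RPKM (log2 fold change 4.29, adjusted p = 5.2e-05). Mature luminal against luminal progenitor cells gave 1 higher and 1 lower, and 3 higher and 7 lower, beside 8.63% and 13.4% of all genes, led by Cited2, an inhibitor of HIF activity, at 1.37 ± 0.412 against 23.4 ± 7.66 RPKM (log2 fold change -3.34, adjusted p = 0.000773).

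In PY230 luminal cells 0 of 24 other glycolysis genes were higher and 5 lower in SOX10 high against low cells, and 4 of 26 other hypoxia genes were higher and 2 lower, beside 12.6% and 10% of all genes. Plod2 was 12.8 ± 1.85 against 1.97 ± 0.764 RPKM (log2 fold change 2.23, adjusted p = 0.00324) and Cited2 33.2 ± 12.7 against 7.29 ± 2.26 RPKM (log2 fold change 2.02, adjusted p = 0.0102). Pfkfb4, which makes an activator of phosphofructokinase, was 2.09 ± 0.411 against 6.39 ± 1.21 RPKM (log2 fold change -1.25, adjusted p = 0.0104) and Stc2 was 49.8 ± 30.8 against 146 ± 18.8 RPKM (log2 fold change -1.67, adjusted p = 0.0429). Pkm, the pyruvate kinase that completes glycolysis, was 324 and 359 RPKM in luminal SOX10 high, 557 and 532 in luminal SOX10 low and 166 and 195 in basal libraries, and it shares 29.8% of its 50-base stretches. In basal against luminal SOX10 high cells 3 and 6 of the other glycolysis genes and 6 and 2 of the other hypoxia genes were higher and lower, beside 13.8% and 28.2% of all genes. Slc2a4, the insulin-responsive glucose transporter, was 35.5 ± 1.3 against 1.22 ± 0.236 RPKM (log2 fold change 4.04, adjusted p = 7.71e-05). Against luminal SOX10 low cells the counts were 5 and 9, and 7 and 6, beside 21.8% and 33.4% of all genes, with Gpd1, a glycerol phosphate dehydrogenase, at 1.08 ± 0.321 against 23.9 ± 0.487 RPKM (log2 fold change -3.59, adjusted p = 3.32e-05). In C3-1-TAg cells 0 of 18 and 0 of 25 passed by limma, beside 0.0418% of all genes, with 0 and 2 at an unadjusted p under 0.05.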

How the data were processed

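RNA from 23 libraries of about 2000 sorted cells each was amplified by SMART-seq2 (18 cycles), made into libraries with Nextera XT (10 cycles) and read over 50 or 75 bases from 1 end, per the labels' protocols. The sources used here do not say which library had which read length. The submitters' processing notes name FastQC, HISAT2 2.0.5, StringTie 1.3.1c and build mm9. The authors deposited RPKM values in 3 tables, made separately. In the C3-1-TAg table no deposited value lies between 0 and 2 and the lowest above 0 is 2.001, so 2 was taken off each value above 0, and 2200 gene symbols were respelled to match the other tables. Neither step is described in the sources used here.

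Members and lists were chosen with earlier results of these data known. Groups of a table were fitted together with limma 3.58.1 (R 4.3.3, with a mean-variance trend) on log2(RPKM + 1), for genes at 1 RPKM or more in at least 2 libraries (4 for C3-1-TAg), with two-sided tests and Benjamini-Hochberg adjustment over all genes tested. The fit was tested on simulated data first. Python 3.11.15 and pandas 2.3.3 were used for tables. The alternatives were a pseudocount of 0.1, no filter, quantile normalization, median-of-ratios factors, a replicate block, leaving out each library and C3-1-TAg values as deposited. A count over members with few shared stretches and a crossed block were added after seeing the data. All members could be named. Library values were given for isoenzyme sets and for up to 8 called members per comparison, and other pathway genes were named as up to 4 called with the largest change, of which 1 is not reported here. Some further members' values were added for context. Stretches of 50 bases were taken from GENCODE vM21 transcripts on GRCm38 (1 in 4 of them sampled), and promoters came from RefSeq on GRCm38.p6, a later build than that of the files, so no coordinates of the files were used. Because the values are not counts and read numbers are unknown, no counting interval is given.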

Additional observations from a re-analysis of the deposited data

Results flagged for a closer look

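Of 66 tests for a single library far from the rest of its C3-1-TAg group (Dixon's ratio at the 95% level), 4 passed, and chance gives about 1 in 20. In SOX10 low cells, replicate 3 had the lowest Pfkl at 21.52 RPKM, next to 41.9 in the nearest library and 45.9 in the highest. In SOX10 high cells, replicate 1 had the highest Egln1 at 27.084 RPKM (nearest 17.1) and the highest Pdk1 at 6.346 RPKM (nearest 3.06). Replicate 3 of that group had the highest P4ha1 at 35.537 RPKM (nearest 22.4).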

How the results depend on the processing

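Counts of members are given here as higher and lower. Taking only members that share under 10% of their 50-base stretches, the higher counts in fMaSC were 7 against adult basal (16 with all members), 11 against luminal progenitor (20) and 15 against mature luminal cells (24). Without the filter on low values, lower counts were 3 for fMaSC against luminal progenitor, 3 for adult basal against mature luminal and 2 for PY230 luminal SOX10 high against low cells. In the same setting adult basal against luminal progenitor cells gave 7 higher and 5 lower, and PY230 basal against luminal SOX10 high cells 6 higher. Mature luminal against luminal progenitor cells gave 3 higher without the filter and 3 with a pseudocount of 0.1. Quantile normalization and median-of-ratios factors each gave 8 lower for fMaSC against luminal progenitor and 8 lower for adult basal against mature luminal cells, and the latter factors gave 4 lower for PY230 basal against luminal SOX10 high cells. The cause of these changes was not tested. Ddit4 in fMaSC against mature luminal cells was -0.0029 under quantile normalization (adjusted p = 0.993), against 0.61, and Car9 in adult basal against luminal progenitor cells ranged from -1.85 to 0.80 when 1 library was left out, against -0.52, the positive value being without adult basal replicate 1.

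Leaving out 1 library at a time gave 16 to 18 higher and 4 to 9 lower for fMaSC against adult basal, 14 to 19 and 2 to 7 against luminal progenitor, and 22 and 4 to 5 against mature luminal cells. Adult basal against luminal progenitor cells gave 4 to 9 and 3 to 9, against mature luminal cells 9 to 14 and 1 to 8, and mature luminal against luminal progenitor cells 3 to 4 and 4 to 6. PY230 luminal SOX10 high against low cells gave 5 to 8 and 0 to 7, basal against luminal SOX10 high cells 4 to 8 and 2 to 11, and basal against luminal SOX10 low cells 8 to 10 and 8 to 10. C3-1-TAg cells gave 0 and 0, and the difference between models 0 to 1. Where 1 library of a group was left, it is assumed to vary like the other groups.

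Over all genes, quantile normalization gave 3142 lower for fMaSC against luminal progenitor (1888 as reported), and 3346 higher and 3246 lower against mature luminal cells (5231 and 1849), where median-of-ratios factors gave 2786 lower. PY230 luminal SOX10 high against low cells had 701 lower without the filter (1320), and PY230 basal against luminal SOX10 high cells 2340 lower under median-of-ratios factors (3699). C3-1-TAg cells had 5 genes higher, 2 with a pseudocount of 0.1, 0 without the filter, 0 with the block, and 10 higher and 1 lower on values as deposited.

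The labels do not tie replicate numbers to animals or days, so the numbers were not taken to pair the libraries. Correlations between same-numbered libraries, of their deviations from group means, were positive in all normal comparisons (0.0004 to 0.2211), -0.2646 to 0.2951 in PY230 and -0.3375 to 0.203 in C3-1-TAg cells. A fit with the replicate number as a block gave 18 higher and 7 lower for fMaSC against adult basal, 20 and 6 against luminal progenitor and 23 and 5 against mature luminal cells, and moved no count of members by over 1.5 times. With the numbers of the PY230 SOX10 low libraries exchanged, the block gave 11 lower for luminal SOX10 high against low cells. The unknown number of reads limits what can be said of genes near 1 RPKM, such as Eno2 in normal cells and Slc16a3.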
